A study of Caenorhabditis elegans with 12 samples.

Results

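The enzymes of fatty acid beta-oxidation were followed at the RNA level in *C. elegans* larvae depleted of *nuo-5*, the worm counterpart of the NDUFS1 subunit of mitochondrial complex I. The set holds every gene whose symbol begins with acdh-, ech-, cpt- or ivd-, together with *kat-1*, *acaa-2* and *hacd-1*. It comprised 32 of the 25478 genes that the platform annotation names alone on a probe set, and each member was read by 1 probe set. All animals were wild-type N2, labelled as L3 larvae, grown at 20 °C and analysed whole, and 3 groups of 4 arrays were compared. Control larvae ate bacteria carrying the empty vector pL4440. Mild RNAi larvae ate *nuo-5* RNAi bacteria in the parental generation, and strong RNAi larvae belonged to the filial generation on the same bacteria. Strength and generation therefore cannot be told apart between mild and strong RNAi, and the generation of the controls is not stated per sample. Plates carried DMSO or lutein in the wider study, and the labels do not say which a given array had. The replicates are biological ones that every group numbers I, III, IV and V, the authors having left out another. Values are log2 probe set signals normalized by RMA, so a difference of 1 is a 2-fold change, and no value of one probe set can be set against that of another.

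Beta-oxidation shortens acyl chains in repeated cycles and hands electrons to the respiratory chain. Long-chain acyl groups enter mitochondria through the carnitine palmitoyltransferases. An acyl-CoA dehydrogenase then introduces a double bond, an enoyl-CoA hydratase adds water, a hydroxyacyl-CoA dehydrogenase oxidizes the product and a thiolase releases acetyl-CoA. Very long and ascaroside chains are shortened in peroxisomes by a parallel set of enzymes. Several members also act outside fat breakdown. *ivd-1* works in leucine degradation, and *acdh-1* and *ech-6* in the propionate shunt that worms use when vitamin B12 is scarce.

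The target of the RNAi was reduced on every RNAi array. *nuo-5* ranged from 8.29 to 8.56 in control larvae. It ranged from 7.15 to 7.66 after mild RNAi (49.2% of the control level) and from 6.89 to 7.22 after strong RNAi (38.2%). Both RNAi groups lay wholly below control (two-sided exact permutation test, p = 0.0286 each, the smallest that 4 against 4 arrays allow), while mild and strong overlapped (exact p = 0.0571). Among strong arrays, number III stood apart in adult genes and in those of germ line and oocytes. The mean log2 value of 5 adult markers was 2.64 to 3.25 on control and 2.67 to 2.94 on mild arrays, while strong array III had 3.63 and strong arrays I, IV and V had 8.80, 9.64 and 7.78, although all are labelled L3. All 5 adult markers were higher in strong RNAi than in control (limma, adjusted p under 0.05). The marker counts stand beside 8.04% of all probe sets that were higher and 5.62% that were lower. Of 7 body muscle markers 4 were lower and 0 higher, of 7 epidermis markers 3 were lower and 0 higher, and of 7 intestine markers 3 were higher and 0 lower. Of 8 germ line and oocyte markers 3 were higher and 2 lower, and of 6 neuronal markers 2 were higher and 0 lower. Every listed marker of these 5 tissues exceeded 3.01, the 40th percentile of all values, on all 12 arrays. In whole larvae, fewer cells of a type and less RNA per cell cannot be told apart.

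In strong *nuo-5* RNAi larvae 6 beta-oxidation genes were lower than in control and 1 was higher. *ech-1.1*, *acdh-12*, *acdh-13*, *ech-5*, *cpt-6* and *acdh-7* fell by 1.38 to 0.62 on the log2 scale, and *ech-9* rose by 1.302. The other 25 members did not pass the test (limma, Benjamini-Hochberg adjusted p under 0.05 over all probe sets). The 6 lower genes are 18.8% of the members, against 5.62% of all 29317 probe sets, and the 1 higher gene is 3.12%, against 8.04%. All 32 members exceeded the limit of 3.01 on at least 4 arrays, and among the 18661 probe sets that did so 8.47% were lower and 12.2% higher. The median change of the members was -0.35, and 24 of 32 were below 0, beside a median of -0.05 and 57.5% below 0 over all probe sets. For 8 of the 32 members all strong arrays lay below all control arrays, while over all probe sets 8.51% did so. For 1 of the 32 they lay above, while over all probe sets 9.39% did so.

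**Figure D1:**
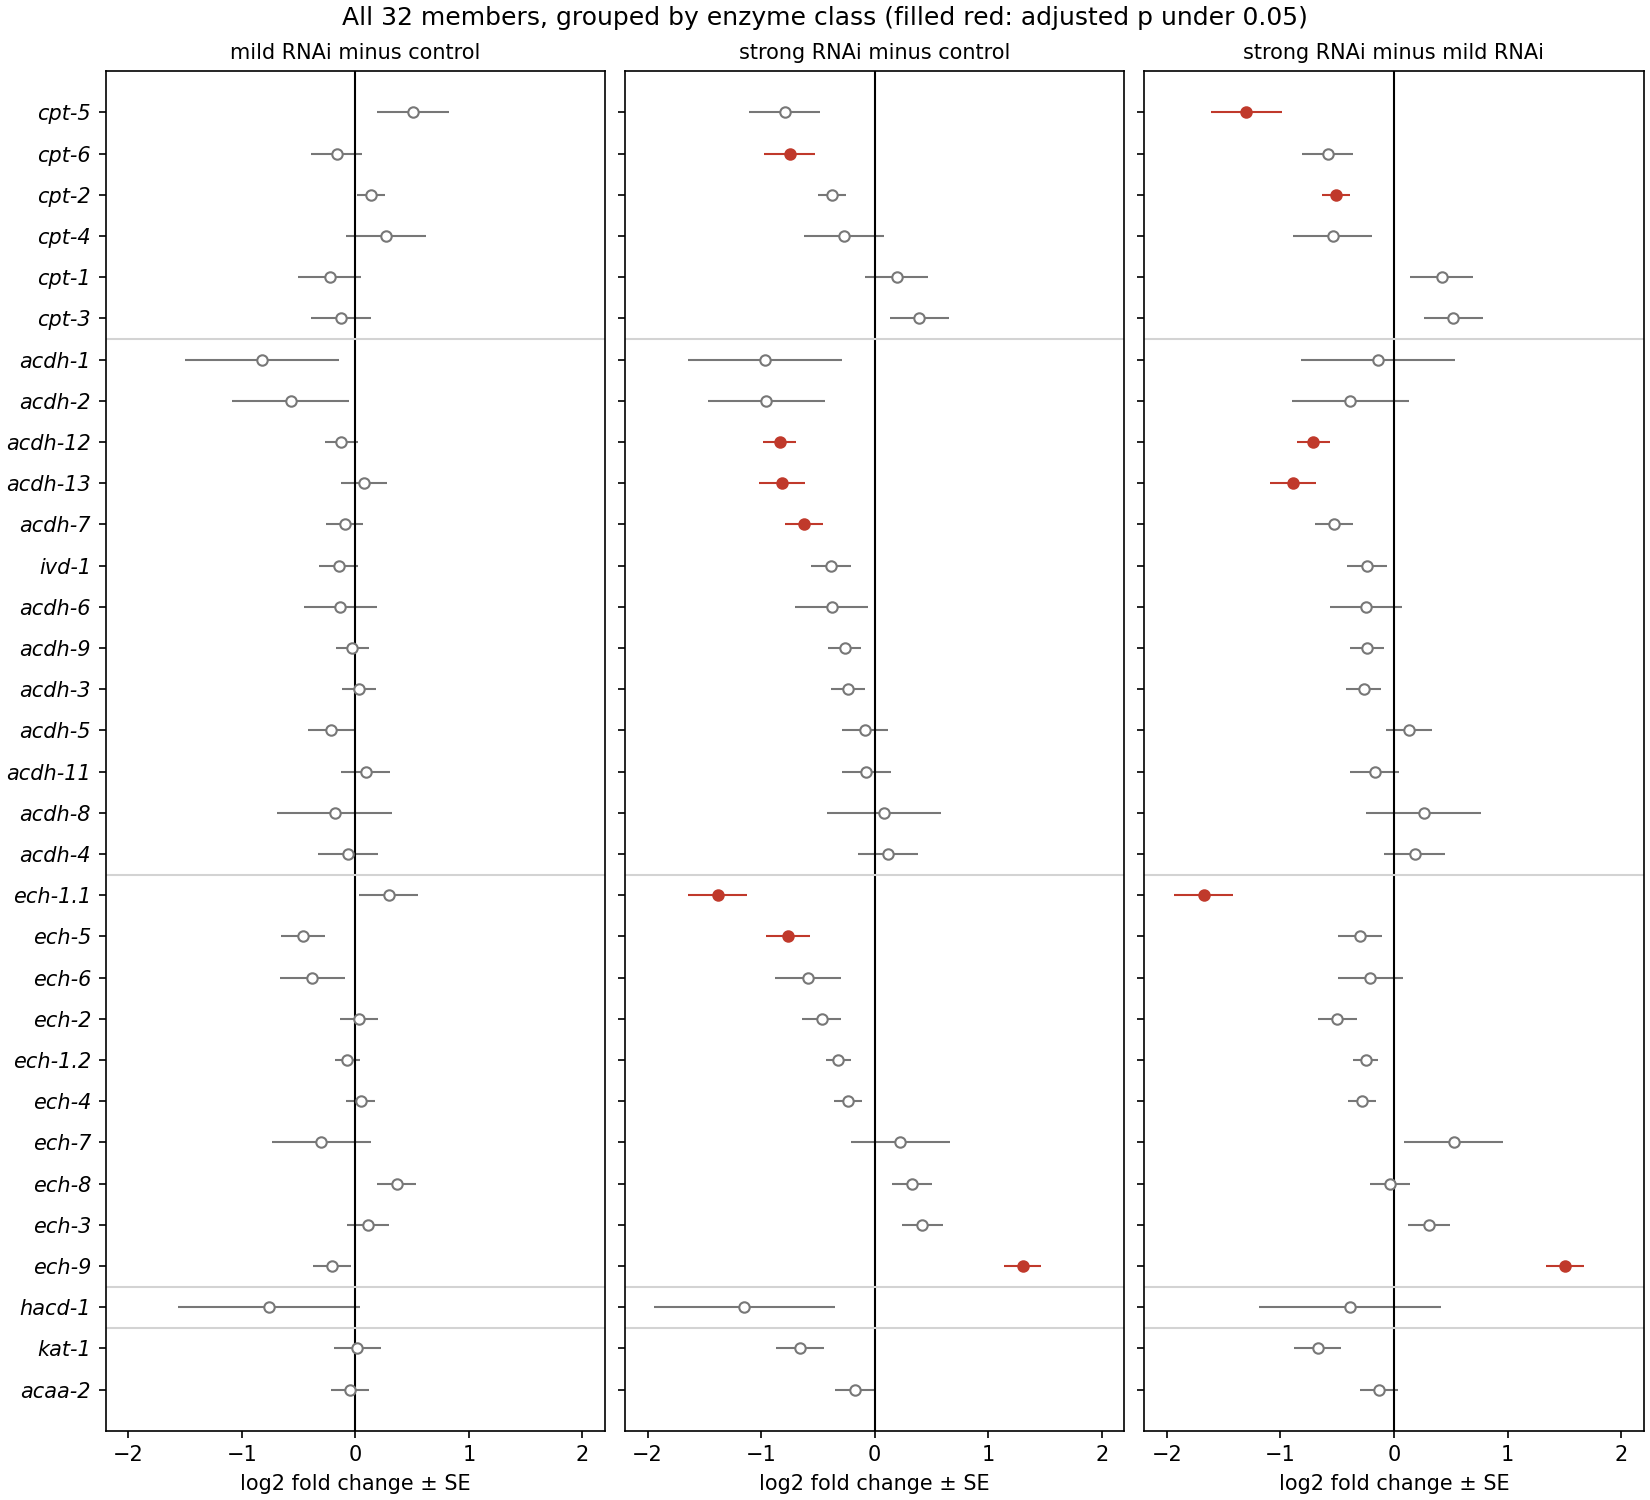
Log2 fold change (x axis, ± SE, 4 arrays per group) of all 32 members in the 3 comparisons, with genes grouped by enzyme class and filled red points marking an adjusted p under 0.05. Mild RNAi minus control has 0 filled points, strong RNAi minus control has 7 and strong minus mild RNAi has 6.

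The decrease was uneven over the strong arrays. The median of the 32 members against the control mean was -0.05 on array I, -0.18 on III, -0.49 on IV and -0.62 on V, so that IV and V were lowest. The mean of the 7 body muscle markers was also lowest on IV and V, with III above I, at 9.55 on array I, 9.81 on III, 9.17 on IV and 8.77 on V. It was 9.89 to 10.02 on control and 9.80 to 10.03 on mild arrays. The mean of the 7 epidermis markers did not follow the members' order, at 7.96 on array I, 8.64 on III, 8.05 on IV and 7.97 on V. That of the 7 intestine markers fell in the members' order, at 9.21, 9.17, 9.13 and 9.04, above the 7.71 to 8.44 of control arrays. That of the 6 neuronal markers rose in the same order, at 8.21, 8.43, 8.78 and 9.01, beside 7.84 to 8.15 on control arrays. The adult markers and the mean of the germ line and oocyte markers were high on array I as well as on IV and V. Whether tissue or stage composition has a part in the members' values was not tested. Without strong array III the fit called 8 members lower and 2 higher, the additional genes being *ech-2*, *kat-1* and, among the higher ones, *cpt-3*. Without strong IV, strong V, control III or control IV it called 3 members lower.

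**Figure D2:**
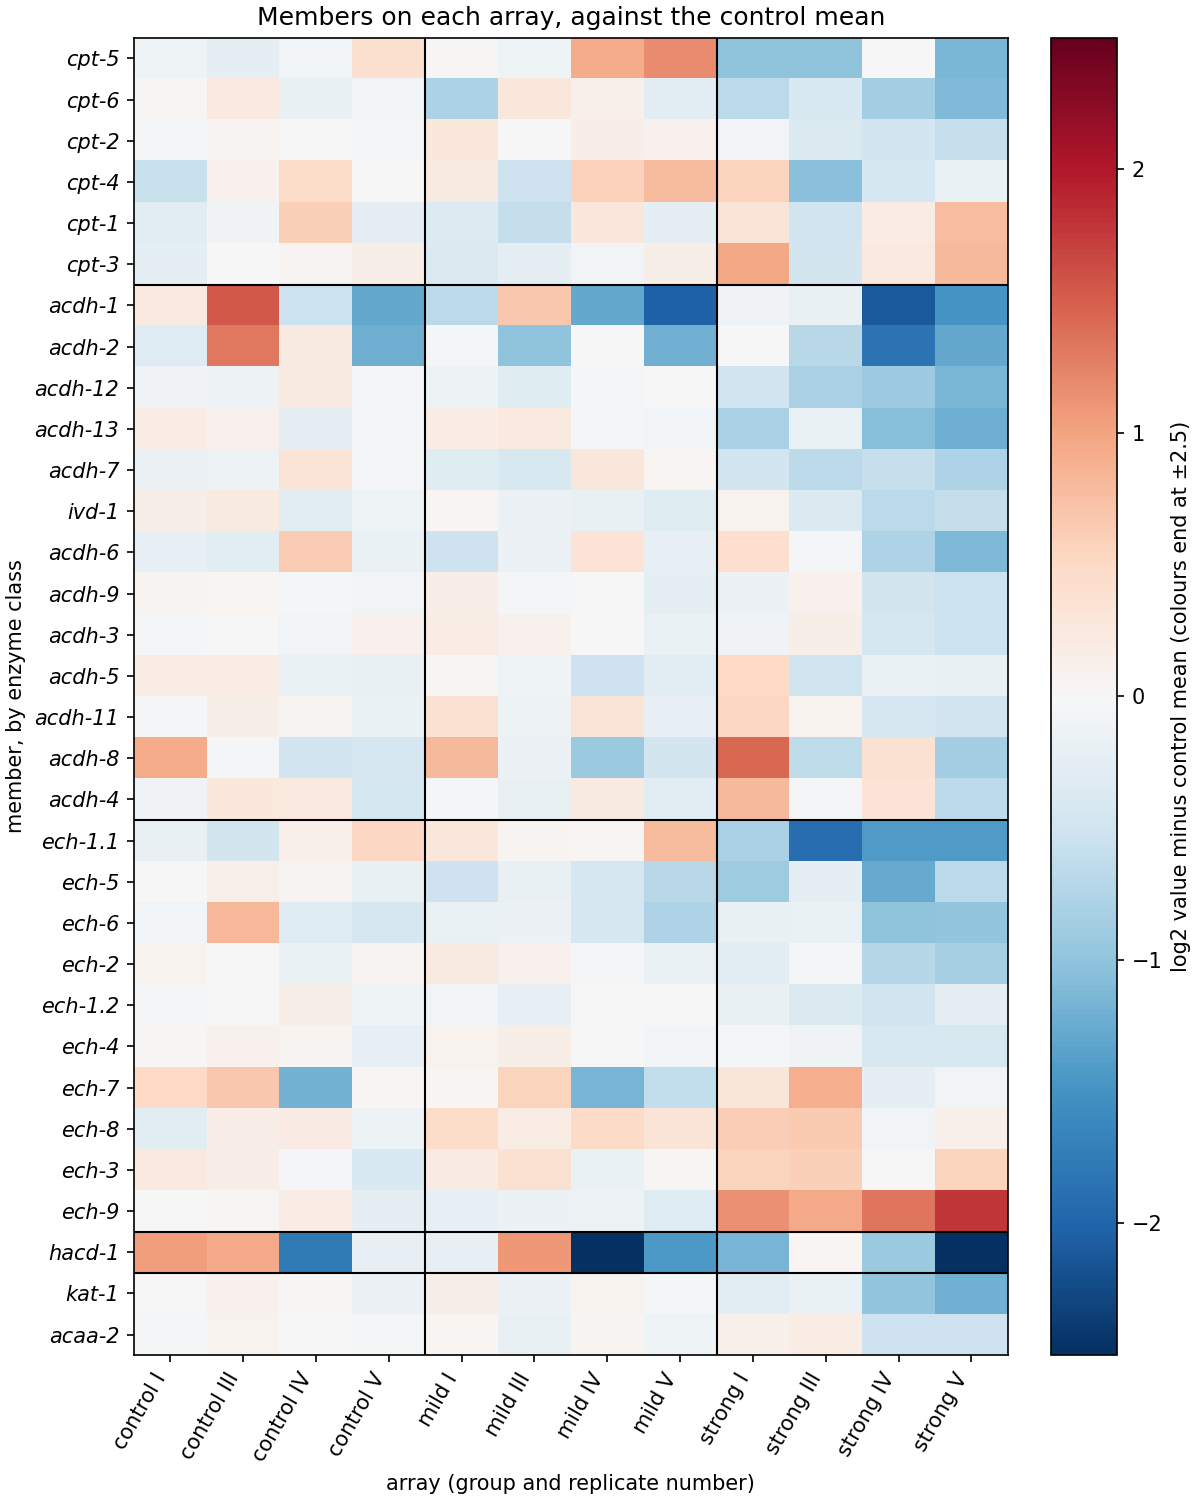
Difference of each member's log2 value from its control mean (colour, ending at ±2.5) on each of the 12 arrays, with genes grouped by enzyme class. Blue prevails on strong arrays IV and V, whose medians are -0.49 and -0.62, while strong arrays I and III are paler.

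The carnitine palmitoyltransferase family was divided. *cpt-1* encodes the counterpart of CPT I, which forms acylcarnitine at the outer mitochondrial membrane. It had values of 7.09, 7.30, 7.99 and 7.15 on control arrays I, III, IV and V, 7.04, 6.78, 7.65 and 7.14 on mild arrays, and 7.70, 6.88, 7.56 and 8.15 on strong arrays. The groups overlapped, and the difference of 0.19 between strong RNAi and control (SE 0.28, adjusted p = 0.704) did not pass the test. *cpt-2*, whose product regenerates acyl-CoA inside mitochondria, varied little within groups. It read 8.90, 9.01, 8.92 and 8.92 in control, 9.21, 8.93, 9.11 and 9.05 in mild and 8.86, 8.57, 8.46 and 8.35 in strong RNAi larvae. All strong arrays lay below all others, and array I missed the control range by the narrowest margin. The gene was 1.43-fold lower in strong than in mild RNAi (log2 fold change -0.51, SE 0.12, adjusted p = 0.0217), whereas the difference of -0.38 from control had an adjusted p of 0.0631. The call against mild RNAi was lost without mild array I or V or strong array IV or V (adjusted p from 0.0522 to 0.0689).

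The 2 family members that also passed the test in a comparison with strong RNAi read below the dim limit of 3.01 on 2 (*cpt-6*) and 3 (*cpt-5*) of the 4 strong arrays, so only log2 differences are given for them. *cpt-6* read 3.76, 3.97, 3.55 and 3.67 in control, 2.95, 4.01, 3.87 and 3.45 in mild and 3.07, 3.35, 2.89 and 2.64 in strong RNAi larvae. Every strong array was below every control array, and the strong mean was 2.99, with a difference of -0.75 from control (SE 0.22, adjusted p = 0.0418). This was the weakest of the calls, and it was lost on leaving out any control array, mild array V, or strong array I, IV or V (adjusted p from 0.0535 to 0.123). *cpt-5* read 3.64, 3.54, 3.69 and 4.17 in control, 3.79, 3.66, 4.68 and 4.94 in mild and 2.75, 2.76, 3.75 and 2.61 in strong RNAi larvae. Strong array IV lay within the control range, and the other 3 strong arrays were below all 8 control and mild arrays. The strong mean was 2.97. The difference from mild RNAi was -1.2999 (SE 0.31, adjusted p = 0.0219), and against control the difference of -0.79 had an adjusted p of 0.120. The call against mild RNAi was lost without mild array IV or V or strong array V (adjusted p from 0.0584 to 0.0688), and without strong array IV the difference from control was called. *cpt-3* and *cpt-4* differed from control by 0.39 and -0.27 in strong RNAi and did not pass the test in any comparison.

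**Figure D3:**
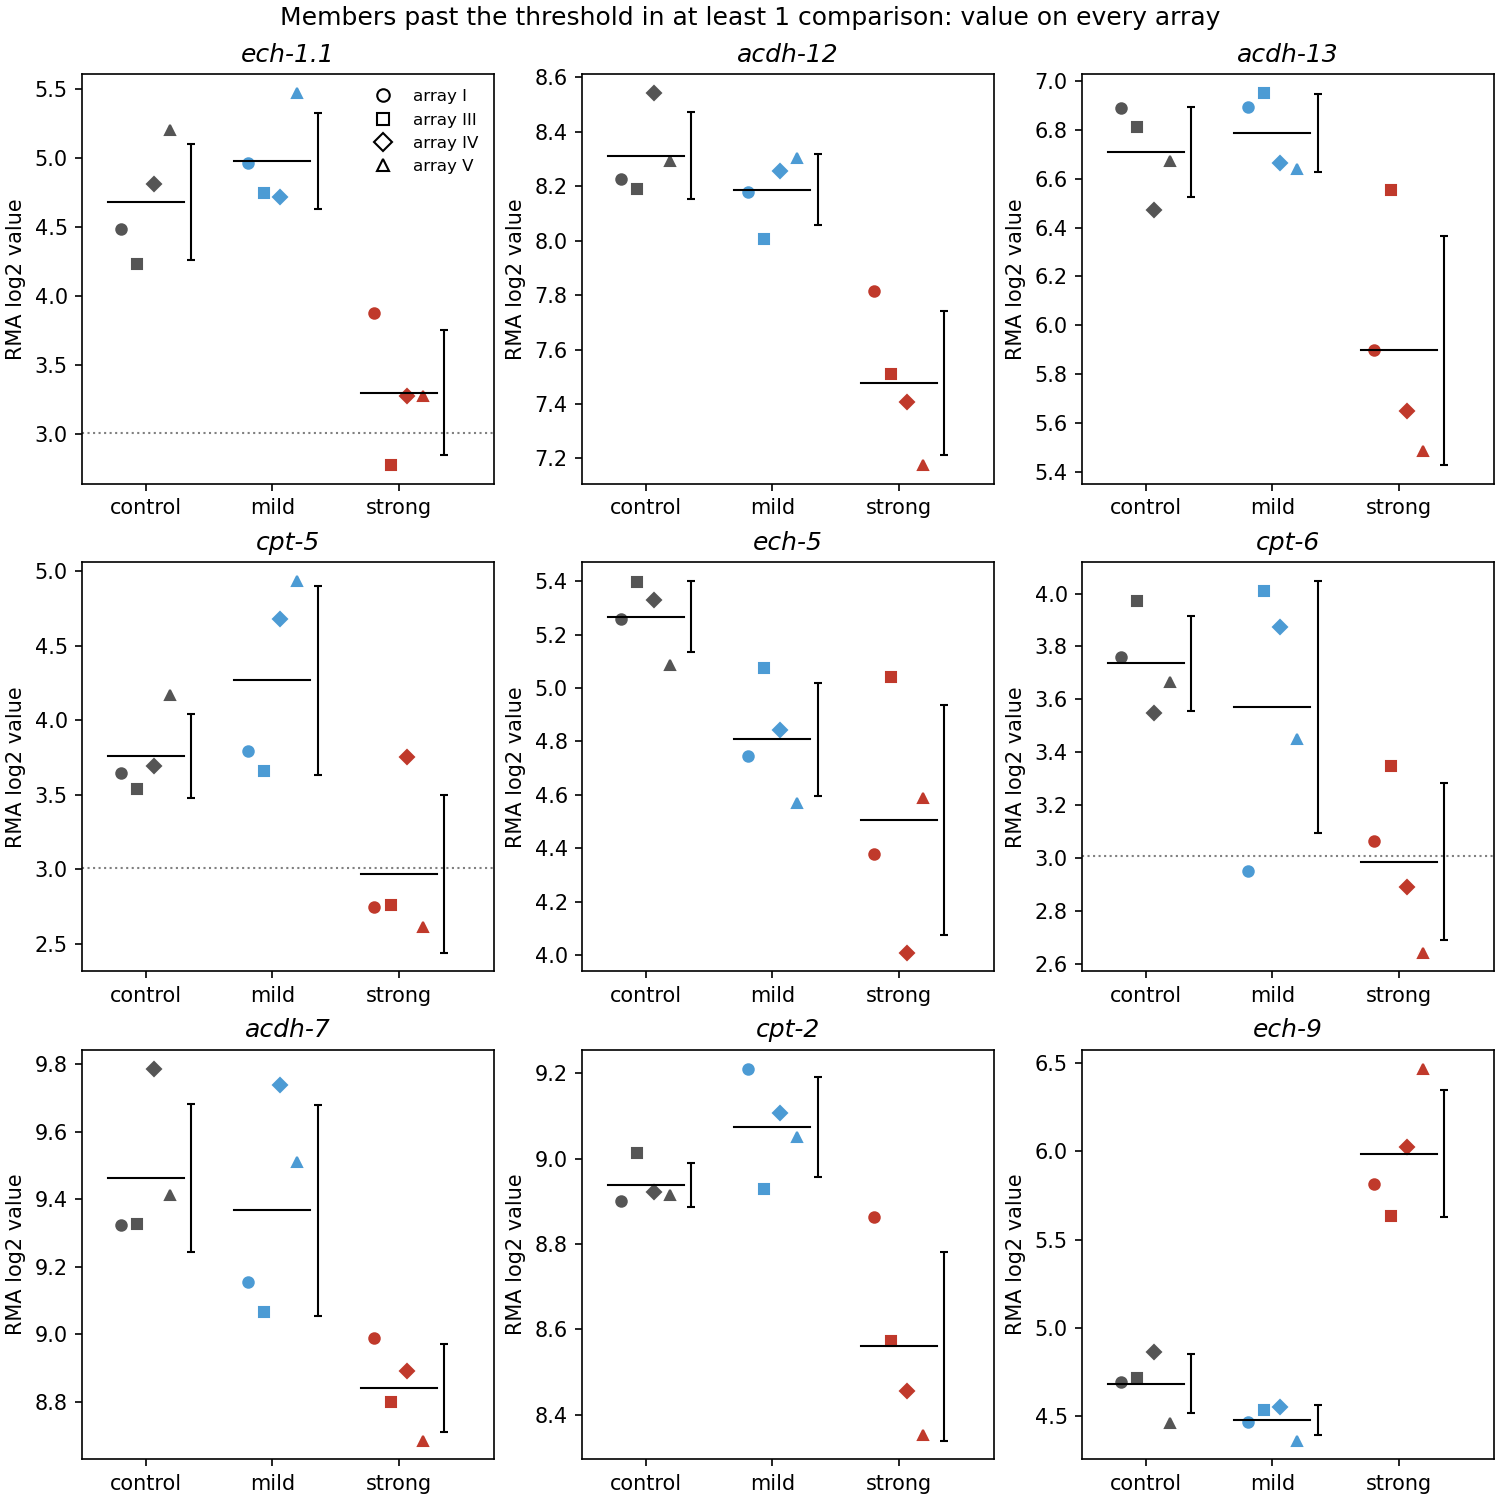
RMA log2 value (y axis, a separate scale per gene) on each array for the 9 members past the threshold in at least 1 comparison, with the group mean (line), the SD (bar, n = 4) and, where values come near it, the dim limit of 3.01 (dotted). In *ech-9* the strong arrays (5.64 to 6.47) lie above all others, and in *ech-1.1* (2.78 to 3.88) below all others.

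Of the 13 acyl-CoA dehydrogenase genes, including *ivd-1*, 3 fell under strong RNAi and none rose by limma, and 4 had an unadjusted p under 0.05, a share near the 27.4% of all probe sets that did. *acdh-12* and *acdh-13* are related to the very-long-chain dehydrogenases that start the cycle on long substrates. *acdh-12* read 8.23, 8.19, 8.54 and 8.29 in control, 8.18, 8.01, 8.26 and 8.30 in mild and 7.82, 7.51, 7.41 and 7.18 in strong RNAi larvae. Strong arrays did not overlap with either group. The fall was 1.78-fold against control (log2 -0.84, SE 0.15, adjusted p = 0.0033) and 1.64-fold against mild RNAi (log2 -0.71, SE 0.15, adjusted p = 0.0109).

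*acdh-13* behaved alike on 3 strong arrays. It read 6.89, 6.81, 6.47 and 6.67 in control, 6.89, 6.95, 6.66 and 6.64 in mild and 5.90, 6.55, 5.65 and 5.49 in strong RNAi larvae. Strong array III lay within the control range and the other 3 well below it. The gene was 1.76-fold lower than in control (log2 -0.81, SE 0.20, adjusted p = 0.0192) and 1.85-fold lower than in mild RNAi (log2 -0.89, SE 0.20, adjusted p = 0.0172). Without strong array III the difference from control was -1.03 (adjusted p = 0.00090), and without control I, control III, strong IV or strong V the call was lost (adjusted p from 0.0525 to 0.0616). The call against mild RNAi was lost without mild III, strong IV or strong V (adjusted p from 0.0505 to 0.0561).

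*acdh-7*, of the medium-chain dehydrogenase type, read 9.32, 9.33, 9.79 and 9.41 in control, 9.15, 9.07, 9.74 and 9.51 in mild and 8.99, 8.80, 8.89 and 8.68 in strong RNAi larvae. The 4 strong values were tightly grouped below both other groups. The gene was 1.54-fold lower than in control (log2 -0.62, SE 0.16, adjusted p = 0.0255), and against mild RNAi the difference of -0.53 had an adjusted p of 0.0628. Leaving out control IV, control V, strong IV or strong V took the adjusted p against control to between 0.0534 and 0.0752. Its neighbour in the genome, *acdh-10*, was not analysed here because no probe set carries that symbol alone. The 10 other dehydrogenase genes differed from control by -0.96 to 0.12. Among them were *ivd-1*, the isovaleryl-CoA dehydrogenase of leucine breakdown, at -0.39 (SE 0.17, adjusted p = 0.172), *acdh-9* at -0.26 and *acdh-11* at -0.08.

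The enoyl-CoA hydratase family held the extremes in both directions. *ech-1.1* and *ech-1.2* both encode counterparts of the alpha subunit of the trifunctional protein, which carries out the hydratase and hydroxyacyl-CoA dehydrogenase steps on long chains. *ech-1.1* read 4.49, 4.23, 4.81 and 5.20 in control, 4.97, 4.75, 4.72 and 5.47 in mild and 3.88, 2.78, 3.28 and 3.28 in strong RNAi larvae. All strong arrays were below all others, and array III, which was near control for *acdh-13*, had the lowest value here. The fall was 2.60-fold against control (log2 -1.38, SE 0.26, adjusted p = 0.0049) and 3.19-fold against mild RNAi (log2 -1.68, SE 0.26, adjusted p = 0.0032). It passed the test under all 20 alternatives, with the difference from control between -1.57 and -1.21.

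*ech-1.2* moved much less. It read 9.65, 9.66, 9.82 and 9.57 in control, 9.60, 9.48, 9.66 and 9.67 in mild and 9.49, 9.30, 9.17 and 9.44 in strong RNAi larvae. The strong arrays were all below the control arrays, yet the difference of -0.32 (SE 0.11, adjusted p = 0.0746) did not pass. The difference between the responses of the 2 paralogues was not tested.

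*ech-9* was the only member past the threshold in the upward direction. It and *ech-8*, which lie next to each other in the genome with 0 coding genes between them, are related to the bifunctional enzyme that joins the hydratase and dehydrogenase steps in peroxisomes. *ech-9* read 4.69, 4.72, 4.86 and 4.46 in control, 4.47, 4.54, 4.55 and 4.36 in mild and 5.82, 5.64, 6.02 and 6.47 in strong RNAi larvae. The lowest strong array exceeded the highest of the other 8. The gene was 2.47-fold higher than in control (log2 1.302, SE 0.16, adjusted p = 0.00060) and 2.84-fold higher than in mild RNAi (log2 1.51, SE 0.16, adjusted p = 0.00055), and it kept the call under all 20 alternatives. *ech-8* lay between 5.93 and 6.39 in control larvae, between 6.38 and 6.67 after mild and between 6.12 and 6.83 after strong RNAi, with a difference of 0.33 between strong RNAi and control (SE 0.18, adjusted p = 0.255).

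*ech-5* differed from the other lower genes in that its mild arrays were also below control. It read 5.26, 5.396, 5.33 and 5.08 in control, 4.74, 5.07, 4.84 and 4.57 in mild and 4.38, 5.04, 4.01 and 4.59 in strong RNAi larvae. Neither RNAi group overlapped with control, although mild array III missed the control range narrowly. The fall was 1.70-fold in strong RNAi (log2 -0.76, SE 0.19, adjusted p = 0.0207) and 1.38-fold in mild RNAi (log2 -0.46, SE 0.19, unadjusted p = 0.0337 by limma), the latter not past the threshold after adjustment (adjusted p = 1.0). Without strong array IV the strong difference was -0.60, and its call was lost on leaving out that array, control III or control IV (adjusted p from 0.0505 to 0.0576). The remaining hydratase genes did not pass: *ech-2* changed by -0.47, *ech-3* by 0.42, *ech-4* by -0.24 and *ech-7* by 0.22 between control and strong RNAi.

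The thiolases close the cycle. *kat-1*, whose loss is known to raise fat content in worms, read 9.70, 9.80, 9.71 and 9.53 in control, 9.84, 9.54, 9.77 and 9.66 in mild and 9.42, 9.52, 8.70 and 8.48 in strong RNAi larvae. Strong arrays IV and V were far below the rest, while I and III lay just below the control range. The difference of -0.66 (SE 0.21, adjusted p = 0.0545) fell just short of the threshold, and 7 of 20 alternatives called it, among them the fit without strong array III. *acaa-2*, a mitochondrial 3-ketoacyl-CoA thiolase, read 9.37, 9.51, 9.41 and 9.38 in control, 9.47, 9.22, 9.50 and 9.31 in mild and 9.55, 9.61, 8.91 and 8.90 in strong RNAi larvae. Here strong I and III were above every control array and IV and V below every one, and the mean difference was -0.18 (SE 0.17, adjusted p = 0.551).

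Under mild RNAi none of the 32 members passed the test by limma in either direction, with or without the replicate number as a block. Without the block 1 member (*ech-5*) had an unadjusted p under 0.05. With it 3 did. The unadjusted p in limma with the block was 0.0145 for *acdh-1*, 0.0194 for *ech-5* and 0.0496 for *ech-6*. Each of these was lower in all 4 mild arrays than in the control of the same number. Over all probe sets 0.0136% were higher and 0.00341% lower at the same threshold, and 3.34% had an unadjusted p under 0.05 without the block and 4.48% with it. The median change of the members was -0.08, with 20 of 32 below 0, beside a median of 0.0015 and 49.6% below 0 over all probe sets. Between strong and mild RNAi 5 members were lower (15.6%, against 4.34% of all probe sets) and 1 was higher (3.12%, against 5.82%). Of these 6, *ech-9*, *ech-1.1*, *acdh-12* and *acdh-13* also passed the test against control. These comparisons share arrays, so that their calls are not independent.

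Several members spread widely within groups, and their differences between groups did not pass the test. *acdh-1*, the dehydrogenase that opens the propionate shunt, read 10.61, 11.91, 9.83 and 9.08 on control arrays I, III, IV and V, 9.68, 11.04, 9.09 and 8.33 on mild arrays and 10.27, 10.17, 8.25 and 8.88 on strong arrays. Mild and control arrays had the same order, with III highest and V lowest. Mild minus control arrays of the same number gave -0.93, -0.88, -0.74 and -0.75, a mean of -0.82 with an SD of 0.09 over 4 pairs, whereas the SD was 1.21 within control and 1.14 within mild RNAi. In limma with the replicate number as a block over all 12 arrays, this difference had an unadjusted p of 0.0145 and an adjusted p of 1.0. Its SE of 0.28 also draws on the strong arrays, so this p does not rest on the 4 pairs alone. A blocked fit of those pairs alone was not run. Strong minus control arrays of the same number gave -0.34, -1.74, -1.58 and -0.20, and the unblocked difference of -0.96 (SE 0.68) had an adjusted p of 0.401, which became 0.0425 with the block. Strong arrays were not taken as paired with controls. Whether arrays of any group were paired by their number is not stated.

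*ech-6*, a short-chain enoyl-CoA hydratase that acts after *acdh-1* in the shunt, read 10.62, 11.52, 10.38 and 10.27 in control, 10.53, 10.54, 10.28 and 9.92 in mild and 10.51, 10.53, 9.69 and 9.72 in strong RNAi larvae. Control array III stood above every other array. Mild minus control arrays of the same number gave differences of -0.09, -0.98, -0.10 and -0.35 on I, III, IV and V, with a mean of -0.38. The strong difference of -0.59 (SE 0.29) had an adjusted p of 0.211, and of 0.0429 with the block. The later shunt enzymes had their highest control value on the same array. *hphd-1* read 10.34 there and 8.63 to 9.30 on the other control arrays, *hach-1* read 7.002 and 5.76 to 6.10, and *alh-8* read 10.25 and 9.64 to 9.92. *acdh-2* likewise read 6.997 on control III and 4.47 to 5.91 on the others. Outside the shunt, *mmaa-1* of canonical propionate breakdown read 9.10 there and 8.02 to 8.18 on the other control arrays. *pcca-1* and *pccb-1* of the same pathway had their lowest control value on that array.

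*hacd-1*, the hydroxyacyl-CoA dehydrogenase of the set, had the widest spread within control. It read 8.43, 8.34, 5.63 and 7.18 in control, 7.20, 8.48, 4.89 and 5.96 in mild and 6.24, 7.45, 6.46 and 4.85 in strong RNAi larvae. Arrays numbered IV were lowest in control and mild RNAi but not in strong RNAi. The difference of -1.15 between strong RNAi and control (SE 0.80, adjusted p = 0.398) was smaller than the control SD of 1.31. *ech-7* was also lowest on array IV in all 3 groups (6.44, 6.45 and 7.38), and *acdh-8* was highest on array I in all 3 (4.56, 4.45 and 5.07).

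**Figure D4:**
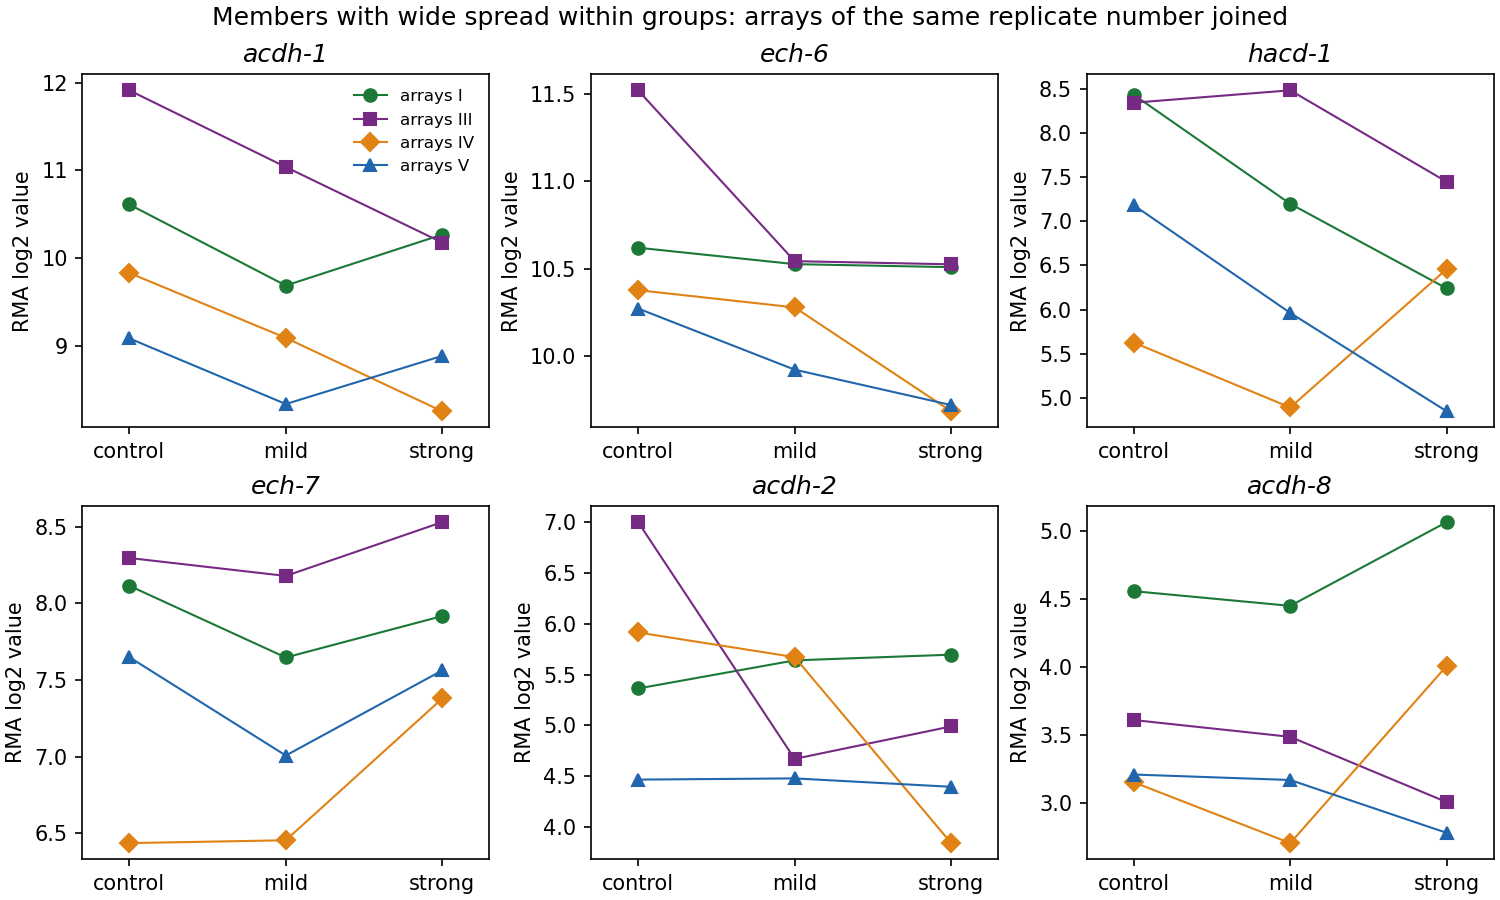
RMA log2 value (y axis, a separate scale per gene) of 6 widely spread members, with arrays of the same replicate number joined across the 3 groups. In *acdh-1* the 4 lines run nearly parallel from control to mild RNAi (differences of -0.93 to -0.74) and cross towards strong RNAi.

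Other genes of fatty acid handling were described by lists, whose counts stand beside the 8.04% of all probe sets that were higher and the 5.62% that were lower in strong RNAi than in control. The peroxisomal pathway had 3 of 10 genes lower in strong RNAi than in control and 0 higher, with a median of -0.59. Its leading genes were acyl-CoA oxidases, the enzymes of the first peroxisomal step. *acox-1.2* read 7.08 to 8.06 in control and 3.85, 5.66, 4.01 and 4.14 in strong RNAi larvae (log2 fold change -3.22, SE 0.41, adjusted p = 0.00063), and *acox-1.4* fell by 1.90 and *acox-1.1* by 0.76. Against mild RNAi 5 of the 10 were lower, beside 4.34% of all probe sets.

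Of 23 acyl-CoA synthetase genes 1 was higher and 2 were lower than in control, shares near those of all probe sets, and the median was -0.03. *acs-2*, a mitochondrial synthetase that fasting induces, read 8.53, 8.997, 9.36 and 8.001 in control and 10.40, 10.22, 10.02 and 9.87 in strong RNAi larvae (log2 fold change 1.40, SE 0.37, adjusted p = 0.0257). *acs-22* fell by 0.78 and *acs-5* by 0.48. The triglyceride lipase list had 1 of 10 genes higher, the adipose lipase *atgl-1* (0.85), and 0 lower. Acyl-CoA-binding proteins changed both ways, with 2 of 7 higher (*acbp-7* by 1.18 and *maa-1* by 0.75) and 1 lower (*acbp-3*, -1.35).

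Enzymes that feed or drain the dehydrogenases formed 6 further lists. Of 5 genes of branched-chain amino acid breakdown 4 were lower in strong RNAi, led by *dbt-1* (-0.79), *mccc-1* (-0.64) and *bckd-1B* (-0.56), and the list median was -0.56. The remaining gene, the aminotransferase *bcat-1*, differed by 0.47 in the other direction (SE 0.15, adjusted p = 0.0517), with every strong array above every control array, and was named after its values were seen. The 3 genes that pass electrons from acyl-CoA dehydrogenases to ubiquinone had a median of -0.42, and 0 of them passed the test by limma. All 3 had an unadjusted p under 0.05, as did 27.4% of all probe sets. One gene was lower and 0 were higher in each of 3 further lists, namely *dif-1* (-0.91) among 3 carnitine genes, *hach-1* (-0.86) among 3 later shunt genes and B0272.3 (-0.78) among 8 auxiliary enzymes. Of 6 genes of canonical propionate breakdown 0 passed the test by limma and 0 had an unadjusted p under 0.05, with a median of -0.16. In mild RNAi 0 genes of any of these lists passed the test by limma, and 1, an acyl-CoA-binding protein gene, had an unadjusted p under 0.05.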

How the data were processed

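Total RNA from animals labelled L3 larvae was hybridized to 12 Affymetrix Gene ST arrays for *C. elegans*, of which the labels and the methods name different versions. The deposited log2 values were made by the authors by RMA (background correction, quantile normalization and probe summary) and hold 29317 probe sets without gaps, from 1.32 to 14.49, with array medians of 3.41 to 3.57. They were not transformed further. Array data carry no read depth, and the number of arrays limits the precision. Arrays of a group correlated at 0.960 to 0.985. Limma p-values set a difference against the spread between biological replicates, pooled over the 3 groups and drawn towards that of all probe sets.

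Group means were fitted over all 12 arrays with limma 3.58.1 in R 4.3.3 (lmFit, contrasts, eBayes), adjusted by Benjamini and Hochberg over all probe sets at 0.05. The fit was tested on simulated data. *nuo-5* was compared by two-sided exact permutation tests. A gene was read from its brightest probe set that carries 1 symbol alone, which 25546 probe sets do, while 646 carry several symbols and 3125 none. All 32 members matched the reference gene table (WBcel235), used for names and neighbours alone. Figures were drawn with matplotlib 3.10.9.

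The members, lists and markers were chosen with earlier results of these data known. Values on every array were given by rule for members past the threshold in any comparison, the 5 others with the highest mean, and *acdh-1*, *ech-6*, *cpt-1*, *kat-1* and *hacd-1*. *acdh-2*, *acdh-8* and *ech-7* were added after their values were seen. In each list up to 3 genes past the threshold with the largest change were named. *hphd-1*, *alh-8*, *bcat-1*, *mmaa-1*, *pcca-1* and *pccb-1* were named after their values were seen.

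The residuals of same-numbered arrays around their group means correlated at 0.34, 0.25, 0.27 and 0.20 between mild RNAi and control for numbers I, III, IV and V. Mild and control arrays were treated as paired by assumption, and the fit with the replicate block is given beside the unblocked one for them. Between strong RNAi and control the correlations were 0.31, 6.8e-05, 0.08 and 0.12, and between strong and mild RNAi 0.23, 0.12, 0.04 and 0.04. Strong arrays were not treated as paired, although the 0.31 of number I lay within the range for mild RNAi. Correlations between arrays of different numbers were not computed, so these values cannot decide whether arrays were paired. What a number shares is not stated in the sources used here. Alternatives were the replicate block, the 8 arrays compared alone, centring on array medians, no dim probe sets (over 3.01 on at least 4 arrays), an intensity trend with robust estimation, array weights, 1-symbol probe sets, an adjusted p under 0.01 and leaving out each array.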

Additional observations from a re-analysis of the deposited data

Results flagged for a closer look

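Of 96 sets of 4 arrays (32 members in 3 groups), 4 held an array far from the other 3 by Dixon's criterion, where chance gives about 1 in 20. *acdh-6* read 5.84 on control array IV and 4.94 to 5.05 on the other control arrays. *cpt-2* read 9.01 on control array III and 8.90 to 8.92 on the others, a small gap in a tight group. *cpt-5* read 3.75 on strong array IV and 2.61 to 2.76 on the other strong arrays. *ech-3* read 4.57 on strong array IV and 5.14 to 5.19 on the others.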

How the results depend on the processing

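Of the 7 calls between strong RNAi and control, *ech-9*, *ech-1.1* and *acdh-12* passed the threshold under all 20 alternatives, while *ech-5* was lost in 4, *acdh-7* in 5, *acdh-13* in 6 and *cpt-6* in 9. Between strong and mild RNAi *ech-9* and *ech-1.1* passed in all 20, and *acdh-12* was lost in 1, *acdh-13* in 5, *cpt-2* in 6 and *cpt-5* in 6. No called difference changed its sign.

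Against control, 6 members were lower in the main analysis, 11 with array weights (adding *cpt-2*, *ech-1.2*, *ech-2*, *ivd-1* and *kat-1*) and 2 at an adjusted p under 0.01. Leaving out 1 array gave 3 to 8 lower members and 1 to 2 higher ones. The count of lower members was 3 without control III, control IV, strong IV or strong V, and 2 were higher without strong III. Against mild RNAi, 5 were lower in the main analysis, 2 in the fit of the 8 arrays compared and 1 at an adjusted p under 0.01, and leaving out 1 array gave 2 to 7 lower and 1 to 2 higher. It was 3 without mild V or strong IV, 2 without strong V, and 2 were higher without strong III. With the replicate number as a block, 9 members were lower and 1 was higher than in control (adding *acdh-1*, *ech-6* and *kat-1*), 7 and 1 against mild RNAi (adding *acdh-7* and *kat-1*), and 0 and 0 between mild RNAi and control. Mild RNAi gave 0 calls among the members under every alternative by limma, with 536 to 1410 probe sets at an unadjusted p under 0.05. These counts have unlike totals. The 536 came from the 18661 probe sets left without dim ones, 836 from the 25546 with 1 symbol, and the other counts from all 29317. The cause of these shifts was not tested, apart from the smaller number of arrays or the stricter threshold that define some of them. Among the called members *cpt-5*, *cpt-6* and *ech-1.1* reach the dim range on strong arrays, where differences are compressed. The uncalled *cpt-3*, *acdh-4*, *acdh-5* and *acdh-8* reach it too. The files pair no sequence with the probe sets, so hybridization between paralogues was not examined.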
